A study of Mus musculus with 7 samples.

Results

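The vascular endothelial growth factor (VEGF) ligands and their receptors were measured in single nuclei of small cell lung tumors. The group held 10 of the 56941 genes in the deposited tables, taken by symbol: the ligand genes Vegfa, Vegfb, Vegfc, Vegfd and Pgf, the receptor genes Flt1, Kdr and Flt4, and the co-receptor genes Nrp1 and Nrp2. Each of the 10 was found in the tables of all 4 animals. The tumors came from 4 male mice, 2 labelled RP (Rb1 fl/fl, Trp53 fl/fl) and 2 labelled RPC (Rb1 fl/fl, Trp53 fl/fl, Casp8-/-). All 4 animals had inhaled an adenovirus with Cre recombinase under the CMV promoter, which acts in whichever airway cells it enters. Both genotypes therefore share the Rb1 and Trp53 alleles and the virus. The methods of the study describe the Casp8 allele as conditional, so blood vessels and immune cells of RPC animals were not designed to lack it. The mice inhaled it as young adults, and the tumors were taken at endpoint some months later and frozen. RPC was set against RP to ask which expression goes with the loss of Casp8, the gene of an initiator caspase of cell death.

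VEGFA is the main growth factor of blood vessel endothelium. It binds KDR, the receptor that carries most of the growth and permeability signal, and FLT1, which binds it tightly, signals weakly and can act as a trap. VEGFB and the placental growth factor PGF bind FLT1, while VEGFC and VEGFD bind FLT4, the receptor of lymphatic vessels. The neuropilins NRP1 and NRP2 are co-receptors for VEGF and also receptors for class 3 semaphorins. In the lung the alveolar epithelium is a known source of VEGFA, and low oxygen raises Vegfa transcription through the hypoxia-inducible factors (HIF).

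In the order RP1, RP2, RPC1, RPC2, which every set of 4 values by animal follows from here on, 8363, 8874, 10853 and 10164 nuclei passed the filters, with a median of 2223 to 3392 transcripts per nucleus, and no barcode was shared between animals. Clusters were named from marker genes that held none of the 10 genes, and the 10 genes were also kept out of the clustering. Tumor-like clusters held 81.7% to 85.5% of the nuclei of each animal, and 11 to 13 of the 14 neuroendocrine markers were detected in them. One of these clusters, with 706 nuclei of which 594 came from RPC1, was led by neuronal genes. The other classes were small. There were 60, 92, 66 and 114 endothelial-like nuclei, and 94, 179, 110 and 105 macrophage- or monocyte-like nuclei. Another 1579 nuclei lay in clusters rich in tumor transcripts and were kept out of every class, among them 33, 64, 26 and 63 with endothelial markers. The neuroendocrine tumor markers still reached 38.7% to 51.0% of their tumor-like level in the endothelial-like nuclei. The part of carried-over tumor RNA in the levels of the 10 genes was not tested.

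The sequences upstream of the genes that lead the results are shown first, because the core HIF element ACGTG and the core ETS factor element GGAA are the motifs usually named for Vegfa and for endothelial genes. Vegfa lies on the minus strand of chromosome 17 (GRCm39, 46327919 to 46343309). In the 2000 bases before its annotated start the letters ACGTG were found 3 times over both strands, at 1902, 1901 and 917 bases upstream, and the first pair overlaps on opposite strands. At least 1 match was present in 60.7% of the 21770 windows of that length before protein-coding genes. The window around the match at 917 bases (chr17:46344167-46344286, minus strand, GRCm39, 5′ to 3′) has the motif in capitals.
Vegfa: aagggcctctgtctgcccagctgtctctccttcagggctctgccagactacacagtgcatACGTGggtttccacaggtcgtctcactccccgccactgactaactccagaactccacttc
Flt1 and Kdr are the receptor genes whose levels in endothelial-like nuclei are described next. For both, the 250 bases upstream of the start in the RefSeq promoter table (GRCm38.p6, 5′ to 3′ on the minus strand) hold GGAA or its reverse complement 4 times, in capitals. That motif was in 93.5% of the 32851 promoter windows of this length, so its presence sets neither gene apart. The Flt1 window is chr5:147726012-147726261 and the Kdr window is chr5:75978456-75978705.
Flt1: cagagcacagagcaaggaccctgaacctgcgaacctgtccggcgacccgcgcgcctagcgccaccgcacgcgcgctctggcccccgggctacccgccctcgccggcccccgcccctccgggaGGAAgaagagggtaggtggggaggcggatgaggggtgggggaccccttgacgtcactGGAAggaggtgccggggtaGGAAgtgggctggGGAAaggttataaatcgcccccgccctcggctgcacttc
Kdr: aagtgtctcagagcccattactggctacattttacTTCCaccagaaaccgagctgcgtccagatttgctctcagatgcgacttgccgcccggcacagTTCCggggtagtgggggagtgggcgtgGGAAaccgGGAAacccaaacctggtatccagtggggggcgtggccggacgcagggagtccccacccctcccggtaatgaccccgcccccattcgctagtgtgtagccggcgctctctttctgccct
A match in these windows is a description of the letters and not a measured binding site.

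Among the ligands, Vegfa was highest by far in alveolar type 1-like nuclei, the thin gas-exchange epithelium. Its level there was 1099 counts per 1000000 transcripts (CPM) in RP1 and 1330, 763 and 870 CPM in the others, on average 1015 ± 253 CPM (SD, n = 4 animals). The next class, the club-like airway nuclei, had 400, 423 and 137 CPM in RP2, RPC1 and RPC2, and no animal of it reached the lowest type 1-like value. Alveolar type 2-like nuclei had 192 ± 75.7 CPM (SD, n = 4), which overlapped the club-like range. Tumor-like nuclei had 62.2 ± 33.7 CPM (SD, n = 4), a range that overlapped those of smooth muscle- or pericyte-like nuclei (111 ± 76.5 CPM) and endothelial-like nuclei (98.3 ± 21.5 CPM). The type 1-like level was above the tumor-like level in each animal, by 4.14 ± 0.52 on the log2 scale of CPM with 1 CPM added (SD, n = 4). These classes come from clustering of all other genes, so differences between classes are given as descriptions without a test.

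With each nucleus thinned to 1000 transcripts, a Vegfa transcript was found in 66.7%, 60%, 40% and 43.2% of alveolar type 1-like nuclei. The same share of tumor-like nuclei was 7.12%, 9.10%, 3.39% and 2.75%. In B cell-like nuclei, taken as a class with little Vegfa, 1 of 84 thinned nuclei held a Vegfa transcript. Thinning left out 12 type 1-like and 2131 tumor-like nuclei below that depth, and the median depths of the nuclei kept were 2897 to 3754 and 2503 to 3381 transcripts. Without thinning, the mean shares over animals were 88.8% and 18.4% in place of 52.5% and 5.59%. Tumor-like nuclei were far more numerous, and 62.3% ± 13.6 of all Vegfa transcripts (SD, n = 4, range 46.3% to 78.7%) lay in tumor-like nuclei and 6.46% ± 4.89 in alveolar type 1-like nuclei. Over all genes together, tumor-like nuclei held 27362779 of 32256394, 27360304 of 35398997, 52792011 of 70517884 and 45130444 of 56562161 transcripts.

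The other ligands had other leading classes. Vegfc, the lymphatic growth factor, was at 85.9, 249, 131 and 254 CPM in endothelial-like nuclei, on average 180 ± 84.5 CPM (SD, n = 4). Fibroblast-like nuclei overlapped that range, at 116 to 144 CPM in RP2 and RPC2, the animals with at least 20 such nuclei. Vegfd was led by the same fibroblast-like nuclei, at 323 CPM in RP2 and 468 CPM in RPC2, and the next class, ciliated-like nuclei, reached 31.3 to 47.8 CPM. Pgf had its highest mean in smooth muscle- or pericyte-like nuclei, 44.9 ± 25.2 CPM on 22 transcripts in all. That range overlapped the 14.8 ± 3.29 CPM of tumor-like nuclei (SD, n = 4). Vegfb showed no leading class, because its highest mean, 14.8 CPM in macrophage- or monocyte-like nuclei, overlapped the 11.8 ± 4.39 CPM of tumor-like nuclei. By number of transcripts, tumor-like nuclei held 83.0% of Pgf, 78.8% of Vegfb, 67.2% of Vegfc and 58.6% of Vegfd, as means over animals. Since the class held most transcripts of all genes together, as given above, a large share alone does not set a ligand apart.

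**Figure D1:**
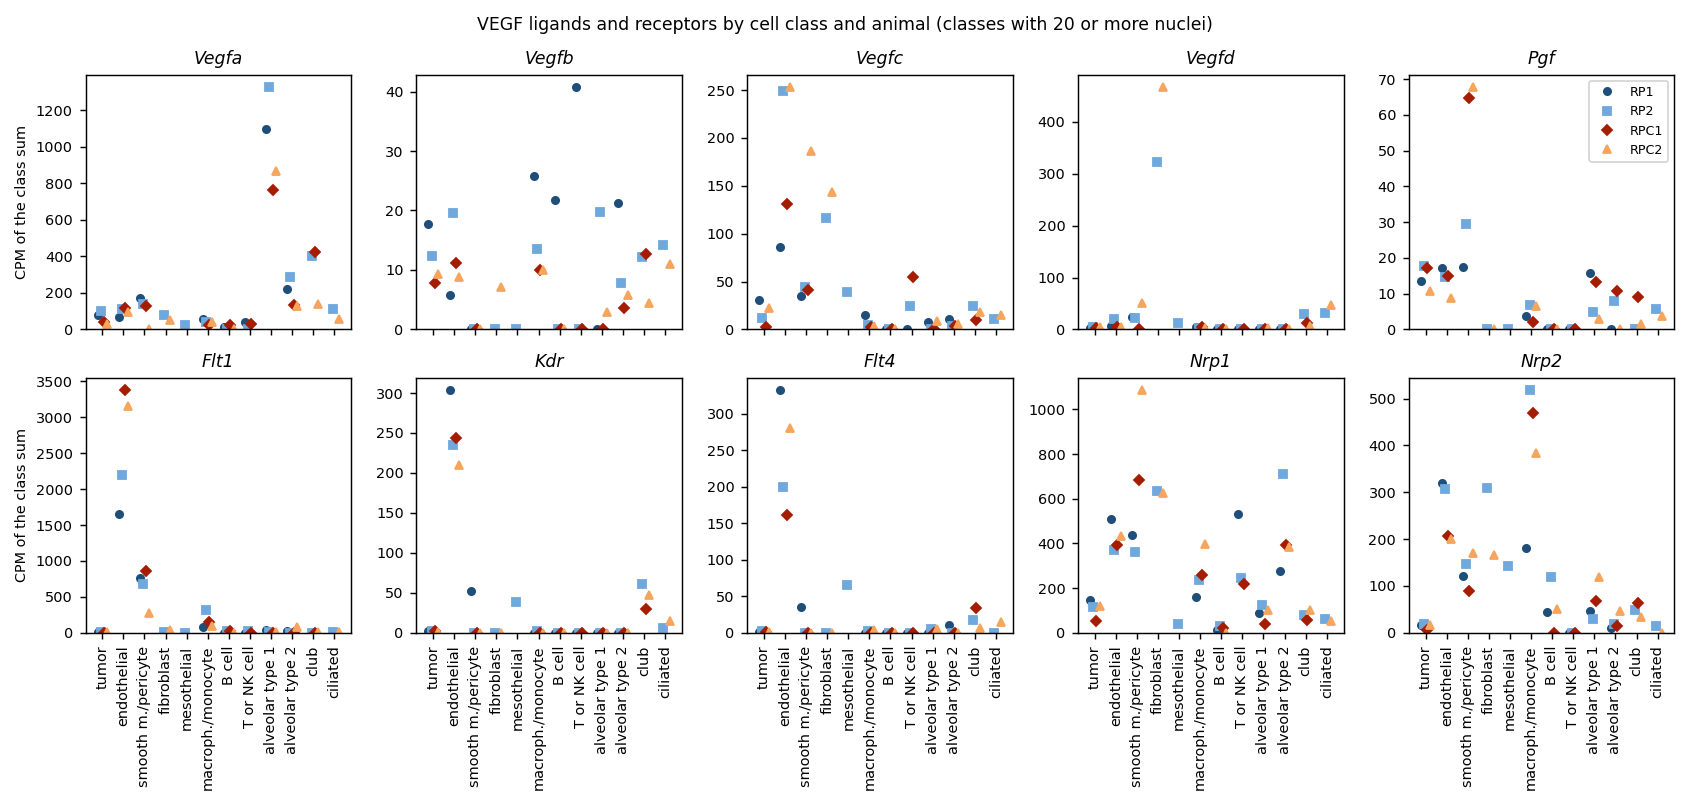
Level of each VEGF ligand, receptor and co-receptor gene in each class of nuclei, in CPM on linear axes that start at 0, with 1 point per animal for classes of at least 20 nuclei in that animal. Vegfa was highest in alveolar type 1-like nuclei (763 to 1330 CPM), and Flt1 and Kdr in endothelial-like nuclei (1650 to 3380 and 210 to 304 CPM).

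All 3 receptor genes were highest in endothelial-like nuclei, and in each the lowest animal there lay above the highest animal of the next class. Flt1 stood at 1650, 2192, 3380 and 3156 CPM, on average 2595 ± 814 CPM (SD, n = 4). Kdr stood at 304, 234, 243 and 210 CPM, on average 248 ± 39.9 CPM. Flt4 stood at 332, 200, 161 and 280 CPM, on average 243 ± 77.2 CPM. Against tumor-like nuclei of the same animal the levels were higher by 8.69 ± 0.72 for Flt1, 6.49 ± 0.37 for Kdr and 6.37 ± 0.62 for Flt4, as log2 levels (SD, n = 4 animals). Since long genes give more transcripts in nuclei, levels of different genes were set side by side only per kilobase of gene. On that scale the endothelial-like mean was 15.8 CPM per kb for Flt1, 5.34 for Kdr, 5.59 for Flt4, 2.92 for Nrp1, 2.24 for Nrp2 and 6.39 for Vegfa.

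In nuclei thinned to 1000 transcripts, Flt1 was seen in 67.3%, 75.0%, 81.0% and 78.9% of endothelial-like nuclei, and in 0.321% to 0.606% of tumor-like nuclei. Kdr was seen in 23.6%, 21.9%, 17.5% and 14.7% of endothelial-like nuclei and in 0.157% to 0.246% of tumor-like nuclei. The median depths of the nuclei kept were 1814 to 2493 transcripts in the endothelial-like and 2503 to 3381 in the tumor-like class, and without thinning the endothelial-like means were 85.1% for Flt1 and 34.1% for Kdr. In the macrophage- or monocyte-like class no thinned nucleus held Kdr, which in the animal with most of them, RP2, is 0 of 154 nuclei and allows a share of nuclei with a transcript of up to 1.95%. The limit concerns nuclei with a Kdr transcript at that depth and not nuclei that express Kdr. Despite these low shares, the tumor-like class held 31.5% ± 5.75 of all Kdr transcripts (SD, n = 4) beside the 27.4% ± 8.36 of the endothelial-like class. Of Flt1 the endothelial-like class held 41.7% ± 7.15 and the tumor-like class 14.4% ± 3.40. For both genes a further part, 23.2% of Kdr and 28.2% of Flt1, lay in the clusters rich in tumor transcripts.

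**Figure D2:**
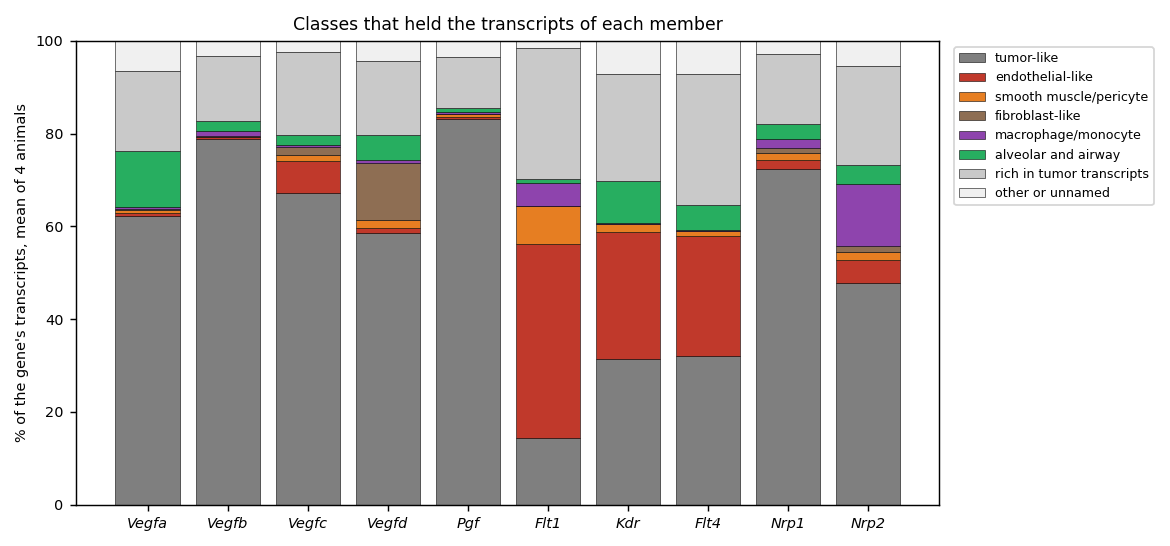
Share of the transcripts of each gene found in each class, in percent, as the mean of 4 animals, with alveolar and airway classes joined and clusters rich in tumor transcripts shown apart. Tumor-like nuclei, which held most transcripts of all genes together, held 62.3% of Vegfa and 72.4% of Nrp1 but 14.4% of Flt1.

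Flt1 was also found in smooth muscle- or pericyte-like nuclei, at a larger share of its endothelial-like level than the endothelial markers, and to a lesser degree in macrophage- or monocyte-like nuclei. Smooth muscle- or pericyte-like nuclei had 768, 678, 859 and 272 CPM of Flt1. This was 46.6%, 30.9%, 25.4% and 8.61% of the endothelial-like level of the same animal, while 13 endothelial marker genes summed there reached 8.18%, 2.79%, 1.23% and 0.691%, and 1, 8, 8 and 10 of the 13 were at 0. Macrophage- or monocyte-like nuclei had 81.0 to 316 CPM, which was 4.91%, 14.4%, 4.34% and 2.96% of the endothelial-like level against 4.89%, 2.18%, 1.53% and 0.841% for the markers. The share of Flt1 was above that of the markers in RP1 to RPC2 alike in the first class. In the second class it was above in RP2, RPC1 and RPC2, while RP1 had nearly equal shares. There 7, 4, 6 and 4 of the 13 markers were at 0. Most of the marker sum of RP1 was Pecam1, at 323 CPM on the scale of the genotype tests below, against 31.9 to 56.8 CPM in the other animals.
Within the macrophage- or monocyte-like class, the sub-clusters with Atp6v0d2, Ms4a8a and Chil3 among their leading genes had 289 and 334 CPM of Flt1, on 178 and 53 transcripts. The sub-cluster led by Mertk and Ms4a7 and the one led by Grap2 had 43.5 and 50.5 CPM of Flt1, on 27 and 6 transcripts. RP2 had 122 of its 179 nuclei in the first pair, against 22 of 94 in RP1, 61 of 110 in RPC1 and 43 of 105 in RPC2.
Club-like nuclei had a low level of Kdr, 60.6, 30.0 and 47.7 CPM in RP2, RPC1 and RPC2. That was 25.9%, 12.3% and 22.7% of the endothelial-like level of Kdr, while the 13 endothelial markers summed to 0.541%, 0.580% and 1.35% of theirs and no thinned club-like nucleus held a Flt1 transcript.

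The co-receptors were spread over more classes than the receptors. Nrp1 was at 437, 361, 682 and 1086 CPM where smooth muscle or pericyte markers led, and its means of 642 CPM there, 630 CPM in fibroblast-like, 441 CPM in alveolar type 2-like and 427 CPM in endothelial-like nuclei all overlapped with their neighbors in that order. Tumor-like nuclei had 108 ± 39.5 CPM of Nrp1 (SD, n = 4) and held 72.4% of its transcripts, in a class with most transcripts of all genes together. Nrp2 was led by macrophage- or monocyte-like nuclei, at 180, 518, 469 and 383 CPM, which overlapped the 259 ± 64.2 CPM of endothelial-like nuclei. Tumor-like nuclei had 14.9 CPM of Nrp2.

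The endothelial-like class was not uniform. Its 332 nuclei fell into 6 sub-clusters, of which 3 carried the marker genes of venous, arterial and lymphatic endothelium and 3 are called here by their first leading gene (Esm1, Gprin3 and Rgs6). Flt1 was pooled over animals at 3449 CPM in the 106 Esm1-led, 2445 in the 94 Gprin3-led, 3194 in the 34 arterial-like and 2886 in the 49 venous-like nuclei. In the 31 lymphatic-like nuclei it was at 12.6 CPM, which is 1 transcript.
Kdr was divided otherwise. It was at 388 CPM in Esm1-led nuclei, whose leading genes Esm1 and Angpt2 are known from sprouting vessels, and at 22.3 CPM, 4 transcripts, in Gprin3-led nuclei, whose genes Sema3c, Hpgd and Lpl are known from lung capillaries. The Rgs6-led nuclei, with the aerocyte capillary marker Car4 among their leading genes, had 312 CPM of Kdr, on 18 nuclei. The Kdr level was above that of Gprin3-led nuclei in the Esm1-led nuclei of 4 of 4 animals, with 407, 330, 337 and 865 CPM against 0, 28.3, 25.2 and 20.5 CPM. These values rest on 28, 35, 30 and 13 Esm1-led and on 4, 23, 18 and 49 Gprin3-led nuclei, so that 20 or more of both kinds were present in RP2 alone.
The lymphatic-like nuclei held the highest Flt4, at 1312 CPM pooled and at 1437, 1169, 524 and 2051 CPM by animal, and the highest Nrp2, at 593 CPM. The venous-like nuclei held the highest Vegfc, at 591 CPM on 58 transcripts, and had 428 CPM of Nrp2. The lymphatic-like nuclei had 12.6 CPM of Vegfc, which is 1 transcript. Nrp1 was at 565 CPM in Esm1-led and 566 CPM in Rgs6-led nuclei and at 50.5 CPM in lymphatic-like nuclei. Of these sub-clusters all but the Esm1-led and Gprin3-led rest on under 50 nuclei.

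**Figure D3:**
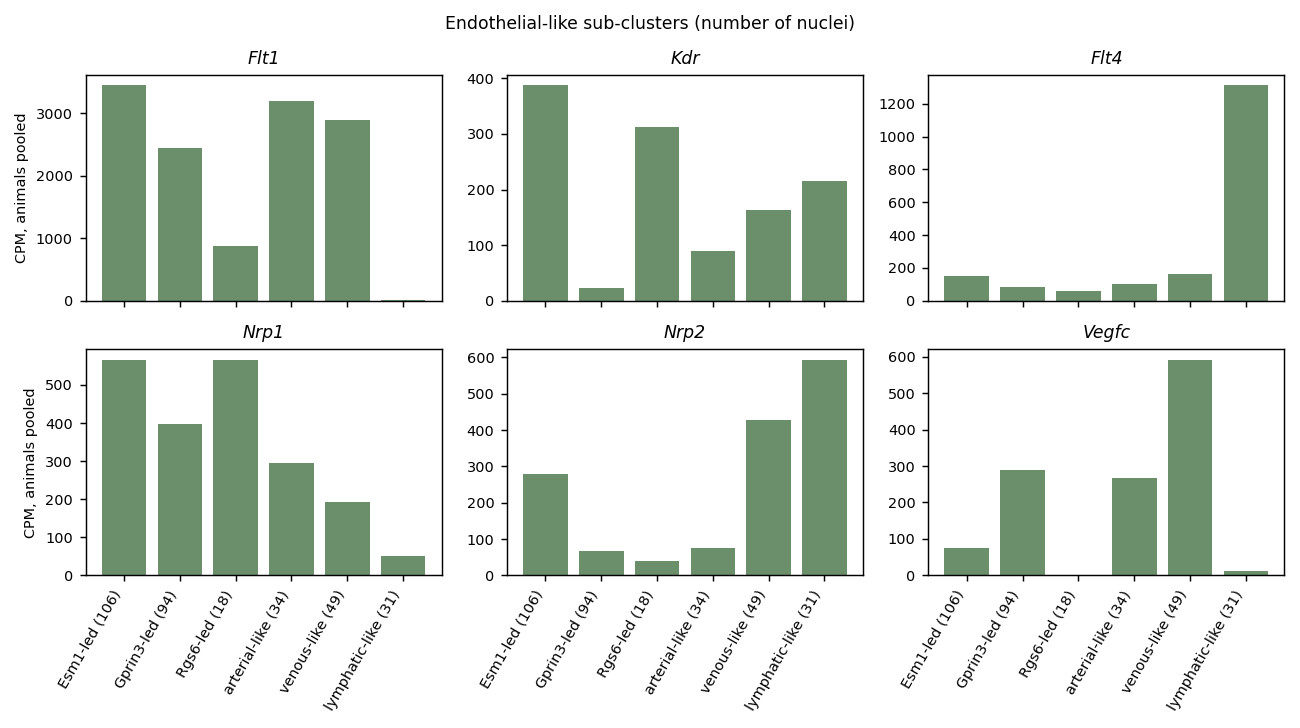
Level of Flt1, Kdr, Flt4, Nrp1, Nrp2 and Vegfc in the 6 endothelial-like sub-clusters, in CPM on linear axes that start at 0, from nuclei of the 4 animals pooled, with no error bars (numbers of nuclei in brackets). Flt4 was highest in the lymphatic-like nuclei (1312 CPM), where Flt1 was nearly missing, and Kdr was high in Esm1-led (388 CPM) and low in Gprin3-led nuclei (22.3 CPM).

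RPC was then compared with RP on counts summed per animal and class, with the quasi-likelihood test of edgeR. Casp8, the targeted gene, was at 58.8 and 61.1 CPM in tumor-like nuclei of RP and 88.9 and 66.2 CPM in those of RPC. Counts over a whole gene cannot show the loss of some of its exons, so neither this level nor those of Rb1 (log2 fold change 0.31) and Trp53 (0.23) checks the labels, and RP and RPC are used as labelled. All 10 genes could be tested in tumor-like nuclei. At an adjusted p of 0.05 edgeR called none of them, and none of the 20069 genes tested (0%). At an unadjusted p under 0.05 it found 3054 genes (15.2%), and DESeq2, the tool of the study, called 653 genes.

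The CPM values of these tests are scaled by the TMM factors of edgeR and so differ from the levels above, and whether animals are called apart is read on them unless stated. Vegfa had the smallest p of the 10. It was at 80.5 and 103 CPM in tumor-like nuclei of RP1 and RP2 and at 38.3 and 29.2 CPM in those of RPC1 and RPC2. Both RPC animals were therefore below both RP animals, with a log2 fold change of -1.44 ± 0.22 (SE, RPC minus RP). The unadjusted edgeR p was 0.00101 and the adjusted p 0.266, whereas DESeq2 gave a log2 fold change of -1.40 with an adjusted p of 0.000628. Over the other edgeR settings and with each animal left out, the fold change of Vegfa lay between -1.64 and -1.24 and its adjusted p between 0.0983 and 0.454. The lower Vegfa was not particular to tumor-like nuclei. Alveolar type 1-like nuclei had the same order of genotypes on the unscaled levels given above, and that class was not tested. On TMM-scaled CPM so did macrophage- or monocyte-like and smooth muscle- or pericyte-like nuclei, where 20.9% and 18.3% of genes were apart and lower in RPC. Without the TMM factors the macrophage- or monocyte-like values overlapped, and endothelial-like values overlapped on either scale. The tumor-like nuclei of the genotypes also differed in the share of ribosomal RNA among their transcripts. It was 9.35% and 7.77% in RP against 2.79% and 5.05% in RPC, and its part in the tumor-like Vegfa values was not tested.
Vegfb followed in the same direction, with 18.4 and 12.4 CPM in RP and 7.56 and 9.29 CPM in RPC. Its log2 fold change was -0.87 ± 0.29 (SE) and its adjusted p by edgeR 0.297. On this scale Kdr, Flt1, Flt4 and Nrp2 were also lower in both RPC animals than in both RP animals, with log2 fold changes of -0.75, -0.50, -0.55 and -0.73 and adjusted p by edgeR of 0.440 to 0.512. So 6 of the 10 genes had genotypes that did not overlap, all lower in RPC, where the animals were apart for 50.4% of all genes tested and lower in RPC for 25.6%. The count depends on the scaling. Without the TMM factors it was 4 of 10 (Vegfa, Vegfb, Kdr and Nrp2). Flt1 then had 5.23 CPM in RP1 and 5.34 CPM in RPC2, and Flt4 1.64 CPM in RP1 and 1.65 CPM in RPC1. The share of all genes apart was not taken without these factors, so that count has no background beside it. The receptor levels were near the floor, with TMM-scaled Kdr at 1.03 to 2.77, Flt4 at 1.45 to 2.77 and Flt1 at 3.33 to 6.75 CPM. Tumor-like Flt1 was 0.317%, 0.305%, 0.101% and 0.169% of its endothelial-like level, and Kdr 0.566%, 1.17%, 0.701% and 0.496%. The median of 13 endothelial markers was 0.338%, 0.299%, 0.176% and 0.217%. Their summed level, the measure used for the other classes, was 3.67%, 2.31%, 2.78% and 1.97%, above both genes. Most of that sum was Erg, at 265, 169, 217 and 174 TMM-scaled CPM. The part of carried-over RNA in these receptor values was not tested.
The other 4 genes overlapped between genotypes. Vegfc varied most between animals, with 32.0 and 11.8 CPM in RP and 2.52 and 22.1 CPM in RPC, and its fold change of -0.84 had an SE of 1.02. Nrp1 had 150 and 117 CPM in RP and 50.8 and 119 CPM in RPC. Pgf and Vegfd had log2 fold changes of -0.22 and 0.36.

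In endothelial-like nuclei 7 of the 10 genes had enough counts for the test, and edgeR called none of them and none of the 4716 genes tested (0%). An unadjusted p under 0.05 was reached by 488 genes (10.3%), and DESeq2 called 3 genes. Flt1 was at 1973 and 2609 CPM in RP and 3800 and 3611 CPM in RPC, so that both RPC animals were higher, with a log2 fold change of 0.69 ± 0.29 (SE, edgeR unadjusted p 0.0409, adjusted p 0.458). With the endothelial nuclei rich in tumor transcripts put back, the log2 fold change was 0.18 for Flt1, -1.34 for Nrp2 (edgeR adjusted p 0.197) and -0.81 for Kdr. Nrp2 was at 384 and 366 CPM in RP and 232 and 230 CPM in RPC, with a log2 fold change of -0.70 ± 0.26 (SE, edgeR unadjusted p 0.0256, adjusted p 0.418). Kdr was at 363 and 279 CPM in RP and 274 and 240 CPM in RPC, a log2 fold change of -0.31 (edgeR adjusted p 0.729). In endothelial-like nuclei the animals of the genotypes were apart for 42% of the genes tested, and for 3 of the 7, with Flt1 higher in RPC (as 21.1% of all genes were) and Nrp2 and Kdr lower (20.9%). Without the TMM factors Kdr overlapped, with 234 CPM in RP2 and 243 CPM in RPC1, and 2 of the 7 were apart. No share over all genes was taken on that scale.
The make-up of the class differed between animals at the same time. Esm1-led nuclei numbered 28, 35, 30 and 13, and Gprin3-led nuclei 4, 23, 18 and 49. Within Esm1-led nuclei Flt1 was at 2070 and 3169 CPM in RP and 3832 and 7667 CPM in RPC, and within Gprin3-led nuclei at 2074 and 1670 CPM in RP and 2164 and 2866 CPM in RPC, so that both RPC animals were the higher in each. Nrp2 within Esm1-led nuclei was at 324 and 286 CPM in RP and 234 and 393 CPM in RPC, where the genotypes overlapped. Flt4, Nrp1, Vegfa and Vegfc overlapped between genotypes over the whole class, with log2 fold changes of -0.34, -0.16, 0.14 and 0.09.

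**Figure D4:**
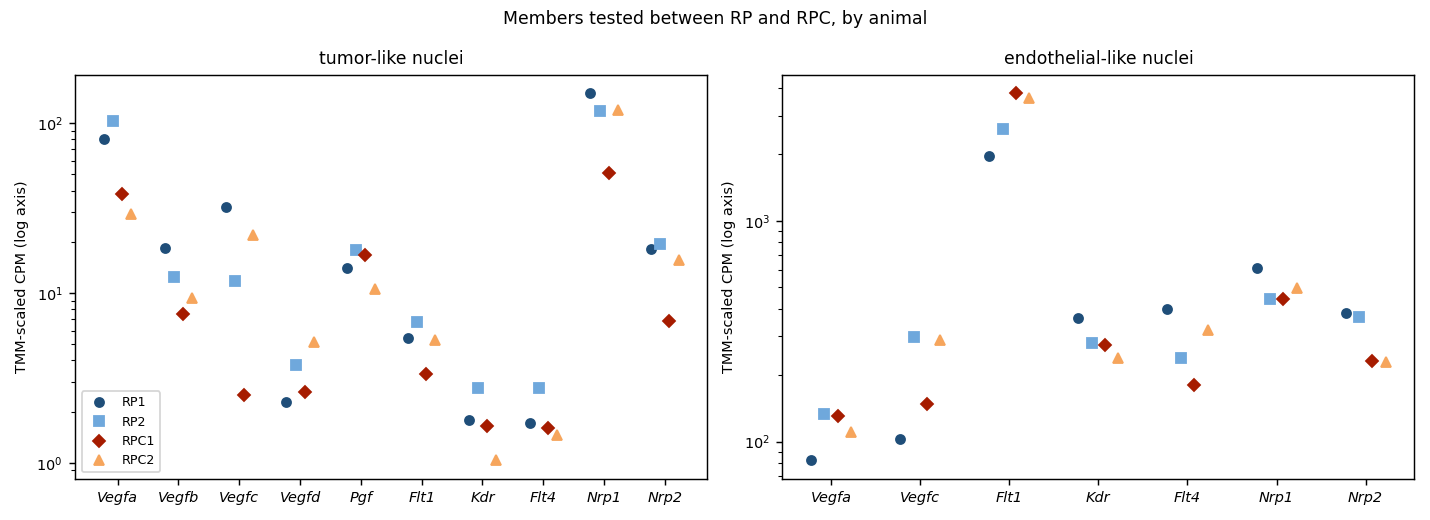
Level of each tested gene in tumor-like (left) and endothelial-like nuclei (right) by animal, in TMM-scaled CPM on a log axis, with RP animals in blue and RPC animals in red and orange. Vegfa in tumor-like nuclei stood at 80.5 and 103 CPM in RP and 38.3 and 29.2 CPM in RPC, and Flt1 in endothelial-like nuclei at 1973 and 2609 CPM in RP and 3800 and 3611 CPM in RPC.

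In each of the next 2 classes 4 of the 10 genes, Flt1, Nrp1, Nrp2 and Vegfa, could be tested. In macrophage- or monocyte-like nuclei edgeR called none of the 6597 genes (0%), with 662 genes (10%) at an unadjusted p under 0.05 and 13 genes called by DESeq2. Flt1 was at 89.9 and 364 CPM in RP and 150 and 99.1 CPM in RPC, and this value rests on RP2: the log2 fold change was -0.89 with all animals, -1.51 without RP1 (edgeR adjusted p 0.000526) and 0.48 without RP2. Vegfa there was at 65.4 and 46.4 CPM in RP and 22.5 and 46.0 CPM in RPC, a log2 fold change of -0.76 (edgeR adjusted p 0.609).
In smooth muscle- or pericyte-like nuclei edgeR called none of the 3590 genes (0%), with 219 genes (6.1%) at an unadjusted p under 0.05 and 2 genes called by DESeq2. Nrp1 was at 558 and 465 CPM in RP and 811 and 1319 CPM in RPC, both RPC animals higher, which with Vegfa made 2 of the 4 genes whose genotypes were apart (36.2% of all genes there), with a log2 fold change of 1.03 ± 0.41 (SE, edgeR adjusted p 0.765). With the nuclei rich in tumor transcripts put back, that value was -0.08. Vegfa was at 223, 180 and 154 CPM in RP1, RP2 and RPC1 and had no transcript in RPC2, in 25 nuclei. Without RPC1, the genotype was therefore represented by an animal at 0, and edgeR gave Vegfa an adjusted p of 0.0111. Fibroblast-like nuclei were not tested, with 15 in RP1 and 16 in RPC1.

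The wider pathway was read from gene lists. Of the 26 HIF target genes tested in tumor-like nuclei edgeR called none, 5 were lower and none higher in RPC at an unadjusted p under 0.05, and the animals were apart and lower in RPC for 10 genes and higher for none. These 5 are 19.2% of the list, beside 15.2% of all genes, and the 10 are 38.5%, beside 25.6%. The median log2 fold change was -0.27, beside -0.01 over all genes tested. The glucose transporter gene Slc2a1 was at 72.1 and 36.4 CPM in RP and 28.2 and 17.5 CPM in RPC (log2 fold change -1.25 ± 0.41, SE). The lactate exporter gene Slc16a3 and the glycolytic genes Pfkfb3 and Pfkp had log2 fold changes of -1.37, -1.40 and -0.77, and the adjusted p by edgeR of the 4 genes were 0.276 to 0.296. Among the 11 HIF regulators none passed an unadjusted p of 0.05, and their median was -0.04. Hif3a had the smallest p, with 2.76 and 2.47 CPM in RP and 7.32 and 3.67 CPM in RPC.
Of the 34 tested genes of VEGF receptor signaling edgeR called none in tumor-like nuclei, with 1 gene up and 3 down at an unadjusted p under 0.05 and 17 lower and 3 higher in RPC without overlap. At that p the list had 11.8% of its genes, beside 15.2% of all genes, and 58.8% without overlap, beside 50.4%. By direction, 50% were lower in RPC without overlap, beside 25.6% of all genes, and 8.82% higher, beside 24.8%. The gene up was Prkcb, a protein kinase C, at 34.4 and 50.3 CPM in RP and 112 and 126 CPM in RPC (log2 fold change 1.49 ± 0.22, SE, edgeR adjusted p 0.266). The 3 genes down were the kinase genes Src and Akt1 and the adaptor gene Shb, at log2 fold changes of -0.62, -0.59 and -0.60. Of 13 class 3 semaphorin and plexin genes, the other ligands and partners of the neuropilins, 1 was up and 4 were down at an unadjusted p under 0.05, and none was called. That is 38.5% of the list, beside 15.2% of all genes. Plxna4 was at 40.5 and 41.8 CPM in RP and 11.6 and 20.03 CPM in RPC (edgeR p 0.00507, adjusted p 0.273), and Plxnb1 and Sema3f had log2 fold changes of -0.93 and -0.92 and Plxna2 of 0.62. The list median was -0.61. Of 14 further angiogenic or antiangiogenic factors 2 were down at an unadjusted p under 0.05 (14.3% of the list, beside 15.2% of all genes), with a list median of -0.19. They were Thbs1, the antiangiogenic thrombospondin gene, at 46.3 and 151 CPM in RP and 15.8 and 23.2 CPM in RPC, and Vash1, with a log2 fold change of -0.83. Neither the 6 angiopoietin and TIE receptor genes nor the 10 Notch and tip cell genes had a called gene, and their medians were -0.12 and -0.01.

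In endothelial-like nuclei 5 Notch and tip cell genes had enough counts, and all 5 were lower in both RPC animals than in both RP animals, which held in that direction for 20.9% of all genes tested there. None was called by edgeR and 3 passed an unadjusted p of 0.05, where 10.3% of all genes did. Dll4, the Notch ligand of tip cells, was at 219 and 128 CPM in RP and 96.8 and 40.01 CPM in RPC (log2 fold change -1.29 ± 0.46, SE, edgeR adjusted p 0.404). Unc5b, Notch4 and Jag1 had log2 fold changes of -1.26, -0.68 and -1.02, and the list median was -1.02 beside -0.01 over all genes. Esm1-led nuclei were fewest in RPC2 (13), as given above, and the part of that difference in these values was not tested. Of 31 genes of VEGF receptor signaling none was called, 5 were down at an unadjusted p under 0.05 (16.1%, beside 10.3% of all genes), and the list median was -0.05. Akt1 was at 82.2 and 75.5 CPM in RP and 12.6 and 25.0 CPM in RPC, and Vav2, Map2k1 and Shb had log2 fold changes of -1.02, -0.91 and -0.98. Tek, the receptor of the angiopoietins, was at 267 and 360 CPM in RP and 379 and 565 CPM in RPC, Angpt2 had a log2 fold change of -1.13 and Tie1 of 0.08, with no call among the 3. In the 2 further classes tested no gene of these lists was called. A change in the number of endothelial nuclei of 1 kind and a change in RNA per nucleus cannot be told apart in these summed counts.

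Whether the ligands vary with the hypoxia genes within a tumor was examined by ordering the tumor-like nuclei of each animal by their summed HIF target level, without any of the 10 genes, and dividing them into 4 equal groups. From the lowest to the highest group Vegfa went from 28.6 to 170 CPM in RP1 and from 65.1 to 171 CPM in RP2. In RPC1 it went from 17.4 to 83.6 CPM and in RPC2 from 20.9 to 46.6 CPM. In each animal every group was higher than the one before. The log2 ratio of highest to lowest group was 2.53, 1.38, 2.20 and 1.12, on average 1.81 ± 0.67 (SD, n = 4 animals), higher in 4 of 4 animals. With each nucleus thinned to 1000 transcripts the mean ratio was 1.20 ± 0.63. An exact two-sided sign-flip permutation test gave p = 0.13, the smallest that 4 animals allow.
Of the other ligands, Vegfc went the other way in 4 of 4 animals, with a mean log2 ratio of -0.73 ± 0.23, and Pgf was higher in 4 of 4 animals by 0.35 ± 0.28. Vegfd was higher in the highest than in the lowest group in 4 of 4 animals, by 0.14 ± 0.05. That rests on 7 to 26 transcripts per animal in the lowest group and 10 to 40 in the highest. Vegfd did not rise steadily, since in each animal a middle group lay above the highest group. Vegfb differed by -0.11 ± 0.24. The ratios of Nrp1, Flt1, Flt4, Nrp2 and Kdr averaged between -0.16 and 0.49, with animals on either side of 0. Median transcripts per nucleus were 2343, 2212, 2836 and 2217 in the lowest group and 2351, 2357, 3214 and 2812 in the highest, so the groups compared were near in depth in the RP animals and less so in the RPC animals.
In each of the 4 groups both RPC animals had a lower Vegfa level than both RP animals. The groups were formed within each animal and were not matched in HIF target level between animals. That level was 192, 175, 290 and 86.5 CPM in the lowest group and 2630, 2178, 2259 and 1346 CPM in the highest. The summed HIF target level of the whole tumor-like class was 1183 and 1052 CPM in RP and 1129 and 674 CPM in RPC, so RPC1 lay within the RP range in this sum and below it in Vegfa. The part of HIF activity in the Vegfa difference between genotypes was not tested.

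**Figure D5:**
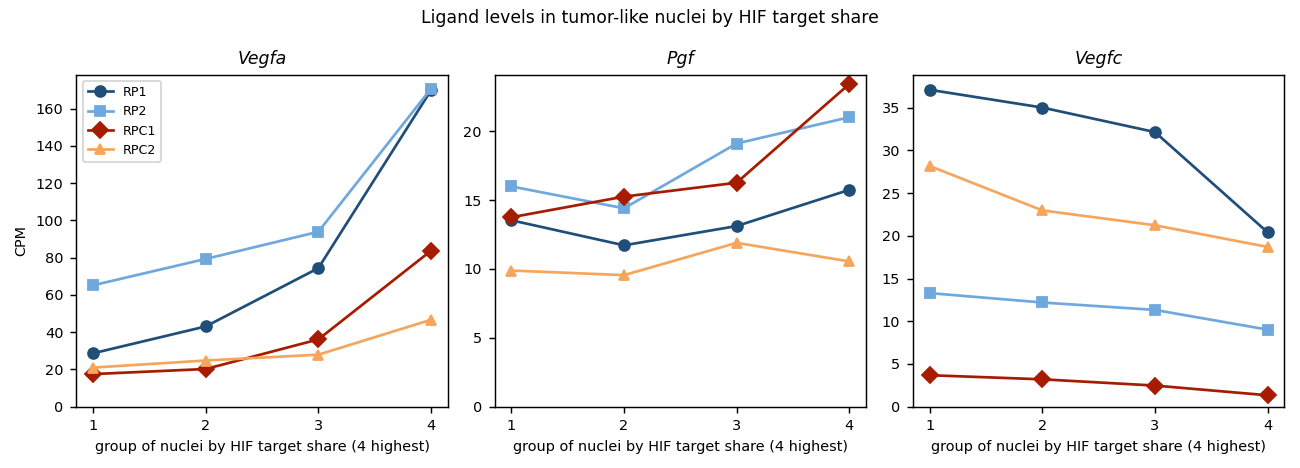
Level of Vegfa, Pgf and Vegfc in tumor-like nuclei divided into 4 equal groups by the share of HIF target transcripts, in CPM on linear axes that start at 0, with 1 line per animal. Vegfa went from 28.6 to 170 CPM in RP1 and from 20.9 to 46.6 CPM in RPC2, while Vegfc was lower in the highest than in the lowest group of each animal.

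Finally, the genes whose level over the 12 named classes was most like that of a receptor or ligand gene were listed by Pearson's r of log2 CPM with 5 CPM added. The points share depth and carried-over RNA, so r is a description. For Kdr the nearest gene was Flt4 (r = 0.96), and Podxl, Tll1 and Inhbb were also among the nearest. For Flt1 they were Dysf (r = 0.98), Nostrin, Notch4, Htr2a and Mmp28. For Vegfa they were Tef (r = 0.94), Pkp2, Nectin3, Chmp4c and Arhgef26. For Nrp1 they were Smurf1 (r = 0.87), Mark4, Nploc4, Rapgef2 and Tnip2, and for Nrp2 Skap2 (r = 0.94), Cyfip1, Gab2, Fam114a1 and Pcnx3.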

How the data were processed

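Fixed nuclei received their barcodes in split-pool rounds (Parse Evercode), the first of which marks the animal. The labels list 7 sublibraries, each holding nuclei of all 4 animals, so the animal was the replicate. The authors aligned reads to GRCm39 with the Parse pipeline. The deposited matrices, 1 per animal, hold counts of unique transcripts per nucleus and gene, not normalized. The deposited nuclei had 300 or more counts. As in the study, nuclei over 10% mitochondrial counts or 12000 genes were removed, which left 38254 of 38353.

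Nuclei were clustered on 2000 variable genes without the 10 members, 20 principal components and a resolution of 0.4 (Python 3.11.15). Classes were named by marker lists, and sub-clusters whose neuroendocrine score exceeded -0.5 were kept out, a limit set after the data were seen. No doublet caller was run. Names are reconstructions and may differ from those of the study. Levels are CPM of counts summed per animal and class, for classes of at least 20 nuclei. Shares of nuclei were taken after thinning to 1000 transcripts.

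For RPC against RP the two-sided quasi-likelihood test in edgeR 4.0.16 (R 4.3.3) was used, with TMM scaling, filterByExpr and Benjamini-Hochberg adjustment over all genes tested. The SE is the size of the log2 fold change over the root of the F statistic. DESeq2 1.42.0, used in the study, was an alternative. With 2 animals per genotype only the spread between these animals was measured. On simulated counts with the fitted dispersion, 4-fold changes in 200 genes were recovered in 83% of tumor-like, 94% of endothelial-like, 92% of macrophage- or monocyte-like and 81% of smooth muscle- or pericyte-like cases. The simulation gave all genes the same common dispersion and changed only genes above a minimum mean count. Real genes differ in dispersion, so these shares do not give the power of the tests above and may exceed it. The rule for named genes took the 10 members, Casp8, Rb1, Trp53, up to 4 genes per pathway list with the smallest p and the 5 genes nearest in pattern to Vegfa, Kdr, Flt1, Nrp1 and Nrp2. The members and all gene lists were chosen with earlier results of these data known. One gene that this rule names is not reported here. Fibroblast-like nuclei were too few for the test. Intervals and limits from counts of 0 cover counting error only. The alternatives were other scaling, no filter, DESeq2, a replicate block, each animal left out, the sub-clusters rich in tumor transcripts put back, a resolution of 0.8, thinning to 500 transcripts and the HIF order divided at its median.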

Additional observations from a re-analysis of the deposited data

Results flagged for a closer look

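Flt4 in tumor-like nuclei was far higher in RP2, at 2.74 CPM, than in the other animals, which had 1.64, 1.65 and 1.46 CPM. It was 1 of 30 groups of 4 animals examined that held such a value, and chance alone gives about 1 in 20. It rests on 75 transcripts of Flt4 in 7253 nuclei, all values here being CPM without TMM scaling.

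On TMM-scaled CPM, Flt1 was lower in both RPC animals in tumor-like nuclei (log2 fold change -0.50) and higher in both RPC animals in endothelial-like nuclei (0.69). Without that scaling the tumor-like values of Flt1 overlapped, at 5.23 CPM in RP1 and 5.34 CPM in RPC2. Neither passed the edgeR threshold, and the difference between the classes was not tested. Tumor-like Flt1 was 0.101% to 0.317% of its endothelial-like level. The median of 13 endothelial markers was 0.176% to 0.338%, and their summed level, mostly Erg, was 1.97% to 3.67%.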

How the results depend on the processing

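With all animals, TMM scaling and filterByExpr, edgeR called 0 genes in each class, and with the size factors of DESeq2 it also called 0. Without the filter on low counts it called 23 genes in tumor-like, 78 in endothelial-like, 99 in macrophage- or monocyte-like and 28 among smooth muscle- or pericyte-like nuclei. DESeq2 called 653, 3, 13 and 2 genes in the same order. With the sub-clusters rich in tumor transcripts put back, edgeR called 4, 1 and 2 genes in the 3 non-tumor classes, and without the cluster led by neuronal genes 0 in tumor-like nuclei. Leaving out 1 animal gave 0 to 3, 0 to 110, 0 to 113 and 19 to 41 genes. In tumor-like nuclei there were 2 without RP1 and 3 without RPC2, in endothelial-like nuclei 1 without RP2, 110 without RPC1 and 56 without RPC2, in macrophage- or monocyte-like nuclei 99 without RP1, 113 without RP2 and 79 without RPC2, and for smooth muscle- or pericyte-like nuclei 19, 29, 41 and 28 without RP1, RP2, RPC1 and RPC2, with the lone animal of a genotype assumed to vary like the others. The cause was not tested.

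The replicate numbers are only names, and with 2 pairs the deviations of same-numbered animals correlated at -0.04, 0.11, -0.08 and 0.04 in the 4 classes. With the replicate number as a block, edgeR called 0, 2, 0 and 32 genes.

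Of 275 recomputed fold changes of the 10 genes, 254 kept direction and side of the threshold, 3 passed it and 18 changed sign. Those that passed were Vegfa in tumor-like nuclei with DESeq2 (-1.40), Flt1 in macrophage- or monocyte-like nuclei without RP1 (-1.51) and, among smooth muscle- or pericyte-like nuclei, Vegfa without RPC1 (-7.29, with RPC2 at 0 transcripts). Leaving out 1 animal turned signs within these ranges: Vegfc (-3.10 to 0.0598), Vegfd (-0.19 to 0.77) and Pgf (-0.58 to 0.0891) in tumor-like, Vegfa (-0.16 to 0.55), Vegfc (-0.46 to 1.08), Flt4 (-0.78 to 0.0545) and Nrp1 (-0.38 to 0.0753) in endothelial-like, Flt1 (-1.51 to 0.48) and Nrp2 (-0.43 to 1.13) in macrophage- or monocyte-like nuclei, and, where smooth muscle or pericyte markers led, Flt1 (-1.49 to 0.13) and Nrp2 (-0.71 to 0.26). With the sub-clusters rich in tumor transcripts, Flt1 where smooth muscle or pericyte markers led was -1.16 (-0.40 without them), and the signs turned for Vegfa (-0.82) and Vegfc (-0.71) in endothelial-like nuclei and for Nrp1 in macrophage- or monocyte-like nuclei (-0.0317) and where smooth muscle or pericyte markers led (-0.0804).

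Of 73 other values 60 moved by less than 1 SD. With those sub-clusters, the endothelial-like minus tumor-like log2 level dropped to 7.15 for Flt1, 4.93 for Kdr, 5.04 for Flt4, 1.09 for Nrp1 and 2.70 for Nrp2. Without thinning, the shares of nuclei were 18.4% (Vegfa, tumor-like), 88.8% (Vegfa, alveolar type 1-like), 85.1% (Flt1, endothelial-like) and 34.1% (Kdr, endothelial-like), and thinned to 500 transcripts the last 3 were 36.0%, 57.5% and 9.76%. Divided at the median of the HIF order, the log2 ratio of Vegfa was 1.08, and with nuclei thinned to 1000 transcripts 1.20. A resolution of 0.8 selected the same endothelial-like and smooth muscle- or pericyte-like nuclei, so it checks nothing there. A fit of fibroblast-like nuclei was not run. With 25 to 179 nuclei per animal in the non-tumor classes tested, depth limits the receptor comparisons.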

Other observations

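Tek, the receptor of the angiopoietins and an endothelial gene, was at 21.8 CPM in tumor-like nuclei of RPC2, against 2.91, 2.99 and 2.17 CPM in those of RP1, RP2 and RPC1, and was chosen here after its values were seen. Kdr and Flt1 were not raised in the tumor-like nuclei of that animal, at 1.03 and 5.29 CPM. The log2 fold change of Tek was 2.02 with an SE of 1.03 and an edgeR adjusted p of 0.403.

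The nuclei that no marker list named held a Vegfa level of 127, 179, 259 and 66.0 CPM, in the order of animals used above. The nuclei in clusters rich in tumor transcripts held 77.4, 126, 105 and 53.4 CPM. Both sets are of unknown make-up and entered no comparison.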
